A study of Mus musculus with 2 samples.

Results

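The facilitative glucose transporters are the products of the Slc2a genes, and 10 genes of that family (Slc2a1, Slc2a2, Slc2a3, Slc2a4, Slc2a5, Slc2a6, Slc2a8, Slc2a9, Slc2a10 and Slc2a12) were followed here among 55536 genes measured. They were taken by their GENCODE M21 symbol. The samples were 2 polyA RNA-seq libraries of whole liver from B6NCrl mouse embryos of both sexes at embryonic day 12.5, for which the labels name no genetic change or treatment. Replicate 1 was a pool of 120 embryos and replicate 2 a pool of 88, and 10 ng of RNA, with ERCC spike-ins, went into each library. Both libraries belong to a single group, so levels, transcripts and the spread between the pools are described, and no p-value was computed.

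Slc2a proteins carry sugars across membranes down their concentration gradient, without using energy. Members differ in affinity, in substrate (glucose, fructose, urate or dehydroascorbate) and in whether they sit at the cell surface or inside the cell. Adult liver cells are known for Slc2a2. Mouse red cells are known for Slc2a1 before and around birth and for Slc2a4 in the adult. At this age the liver makes red blood cells beside its own epithelial cells.

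The libraries held 38293265 and 35399872 expected counts, which are reads divided among genes by estimation and need not be whole. TPM, the unit of all levels below, divides a count by the effective length of the transcripts and scales it to a common total per library, which allows levels of different genes to be compared. Spike-ins took 4.99% and 5.40% of all TPM. The 5 erythroid markers examined lay above 100 TPM in both libraries, led by Slc4a1 with 790 ± 33.2 TPM (SD, n = 2), and the hepatoblast markers were led by Afp with 5157 ± 131 TPM. The adipocyte markers Plin1 and Lep and the pancreas gene Ptf1a had a count of 0. In whole tissue, fewer cells of a type and less RNA per cell cannot be told apart.

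In Slc2a1 and Slc2a2, transcripts that leave out an exon were assigned a large share of the reads under M21, beside the complete coding transcript, but almost none under the older annotation GENCODE M4. Slc2a1-204, without an exon of Slc2a1, had 7827 and 6978 counts under M21 and 17.3 and 27.3 under M4. Slc2a2-202, without an exon of Slc2a2, had 267 and 277 counts under M21 and 0 under M4. Both transcripts also start later and end earlier than the complete ones, and the part of the ends in these counts was not tested. Reads across the junctions were not counted here. The lines show the junction that is found in the shorter form of each gene and, for Slc2a2, the junction of the complete form, read from the GENCODE M21 transcripts 5′ to 3′. Lower case is the last 30 bases of the exon before the junction, and capitals are the first 30 bases of the exon after it.
Slc2a1 exon 4 to exon 6: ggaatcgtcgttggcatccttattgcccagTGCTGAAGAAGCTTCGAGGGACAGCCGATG
Slc2a2 exon 3 to exon 4: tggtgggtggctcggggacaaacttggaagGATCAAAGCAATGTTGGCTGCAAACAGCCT
Slc2a2 exon 3 to exon 5: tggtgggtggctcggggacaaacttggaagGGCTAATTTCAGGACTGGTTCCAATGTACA

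In Slc2a1 the exon left out is exon 5, all of it coding, whose 163 bases are 1 more than a whole number of codons. Without it the reading frame ends with TGA, 3 coding bases after the junction. The annotated product then has 173 residues, against 492 for the complete transcript. On the genome, Slc2a1-204 also starts 203 bases later and ends 653 bases earlier than Slc2a1-201.
In Slc2a2 the exon left out is exon 4, chr3:28713693-28713817 on mm10, plus strand, whose 125 bases are 2 more than a whole number of codons. Its sequence is printed because Slc2a2-202 lacks this stretch. The forms also differ at their ends, since on the genome Slc2a2-202 starts 114 bases later and ends 3883 bases earlier than Slc2a2-201.
Slc2a2 exon 4: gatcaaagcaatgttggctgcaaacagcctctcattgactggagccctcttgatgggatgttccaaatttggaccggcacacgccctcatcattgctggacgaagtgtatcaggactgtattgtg
Without it the frame runs for 109 coding bases past the junction and ends with TAG, giving 159 residues against 523.

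Slc2a1 was the most abundant member by a wide margin, and the family fell into 5 genes near or above 10 TPM and 5 genes under 1 TPM. Slc2a1, the basal glucose transporter of foetal red cells and of many dividing cells, had 259 TPM in each library (258.8 ± 0.361, SD, n = 2), above 98.2% of protein-coding genes. Slc2a3, a high-affinity transporter best known in neurons and in the early embryo, stood at 32.5 TPM in replicate 1 and 29.7 in replicate 2. Slc2a2, the low-affinity glucose transporter of liver, gut and the insulin-secreting cell, had 14.9 and 16.3 TPM. The textbook transporter of adult liver thus had rank 3 in the family by TPM as deposited, and Slc2a3 had 2.00 ± 0.255 times its level. Under M4 that ratio was 2.42 ± 0.294. With a fixed length for each gene it was 4.53 ± 0.504, and in complete coding transcripts it was 9.93 ± 0.968, both with Slc2a2 at rank 5. The last 2 ratios rest on the M21 form of the complete Slc2a2 transcript, which is 2996 bases longer than in M4. The part of that length in them was not tested. Slc2a4, the insulin-responsive transporter of muscle and fat, which adult mouse red cells also carry, had 12.5 and 14.2 TPM. Slc2a8, which resides mainly on membranes inside the cell, had 9.36 and 9.93 TPM.

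The other 5 members together had 2.12 TPM in replicate 1 and 2.21 in replicate 2, from 148 and 147 counts. Slc2a10, whose product is linked to dehydroascorbate and to the arterial wall, had 0.91 and 0.60 TPM. Slc2a9, a urate transporter of adult liver and kidney, had 0.50 and 0.98 TPM. Slc2a6, found on lysosomes of blood-derived cells, had 0.26 and 0.30 TPM. The fructose transporter Slc2a5 had 0.25 and 0.18 TPM. Slc2a12, a transporter of muscle and heart, had 0.20 and 0.15 TPM. None of these 5 reached 1 TPM in either library.

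**Figure D1:**
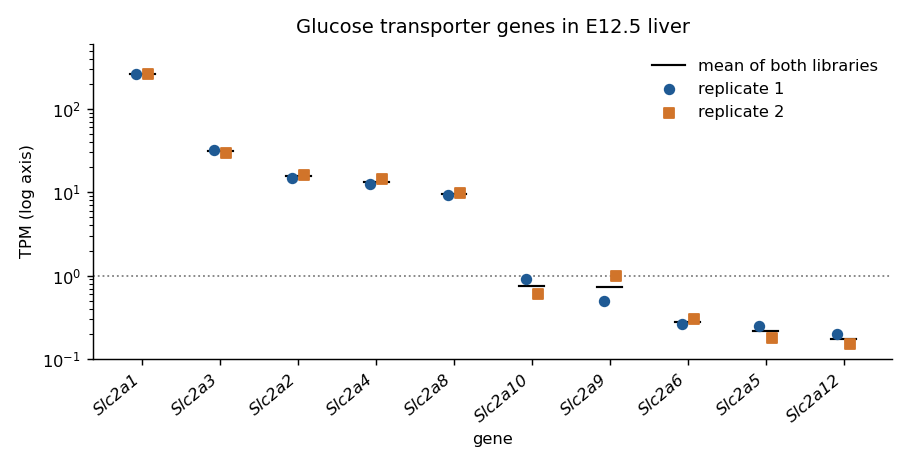
TPM (log axis) of each of the 10 members in E12.5 liver, with circles for replicate 1, squares for replicate 2, bars for their mean and a dotted line at 1 TPM. Slc2a1 stands at 259 TPM in both libraries, and the libraries lie close together for the 5 upper members but apart for Slc2a9.

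The summed level of the family was 330 TPM in replicate 1 and 331 TPM in replicate 2, and Slc2a1 made up 78.3% ± 0.193 of it. Slc2a3 made up 9.41% ± 0.609. Slc2a1 exceeded Slc2a3 by 8.34 ± 0.519 times. Of the 10 members, 5 had a mean of 1 TPM or more, where 54.3% of all protein-coding genes did, and 4 had 10 TPM or more, where 32.1% of them did. The count at 10 TPM was 3 or 5 under other annotations, lengths and TPM totals. These counts lie near the background, and most of the family's total came from Slc2a1. The median was 5.20 TPM for the members and 1.82 TPM for protein-coding genes.

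In the order of mean TPM (Slc2a1, Slc2a3, Slc2a2, Slc2a4, Slc2a8, Slc2a10, Slc2a9, Slc2a6, Slc2a5, Slc2a12), 7 of 9 neighbouring pairs did not overlap between libraries. Slc2a10 and Slc2a9 overlapped, and so did Slc2a5 and Slc2a12. The gap between Slc2a2 and Slc2a4 was small, since the lower value of Slc2a2 was 14.9 TPM and the higher value of Slc2a4 was 14.2 TPM. With 1 group of 2 libraries no likeness of pattern between genes was computed.

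The members lie on 7 chromosomes, and the positions given here are those of GENCODE M21 on mm10. Slc2a1 (ENSMUSG00000028645.11) spans chr4:119108711-119137983 on the plus strand, and Slc2a2 (ENSMUSG00000027690.13) spans chr3:28697903-28731359 on the plus strand. Slc2a3 (ENSMUSG00000003153.10) spans chr6:122727809-122801640 on the minus strand. Slc2a4 (ENSMUSG00000018566.14) is compact, at chr11:69942539-69948188 on the minus strand. Slc2a8 (ENSMUSG00000026791.14) and Slc2a6 (ENSMUSG00000036067.12) are on the minus strand at chr2:32972990-32982083 and chr2:27021363-27027998, and Slc2a10 (ENSMUSG00000027661.4) is on the plus strand at chr2:165503787-165519917. Slc2a5 (ENSMUSG00000028976.10) is at chr4:150119283-150144169 on the plus strand. Slc2a9 (ENSMUSG00000005107.13) covers chr5:38349273-38503143 on the minus strand, and Slc2a12 (ENSMUSG00000037490.5) covers chr10:22645011-22704285 on the plus strand. The complete proteins have similar lengths, from 477 residues for Slc2a8 to 622 for Slc2a12.

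The family genes outside the 10 were low. Slc2a13, a proton-coupled inositol transporter, had 54 and 55 counts, or 0.29 and 0.28 TPM. Slc2a7, the gut gene that lies 4802 bases from Slc2a5 on chromosome 4, had no count in either library, where 3 counts in a library are the upper limit that a count of 0 leaves.

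Of the 5 members at 1 TPM or more, Slc2a1 and Slc2a2 had the lowest shares of TPM from complete coding transcripts. M21 annotates 58 transcripts for the 10 genes. For Slc2a1 the complete coding transcript Slc2a1-201 (10 exons, 3260 bases) had 142 TPM in replicate 1 and 146 in replicate 2. Slc2a1-204, the form without exon 5, is annotated as a target of nonsense-mediated decay, the pathway that removes messages with an early stop, and had 112 and 108 TPM. Its mean share of the gene's TPM was 42.4% ± 1.07, against 55.6% ± 1.19 for Slc2a1-201, and by counts it was 34.0% against 65.6%. The annotation gives Slc2a1-204 its weakest support level, 5, against 1 for Slc2a1-201.

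Slc2a2 was divided among 3 transcripts. The complete coding transcript Slc2a2-201 (11 exons, 5569 bases) had 2.61 TPM in replicate 1 and 2.74 in replicate 2. Slc2a2-202, the form without exon 4, had 6.05 and 6.79 TPM and is also annotated as a decay target with support level 5. Slc2a2-203, a retained-intron transcript of 1649 bases at chr3:28721517-28728327, had 6.20 and 6.75 TPM. So 17.2% ± 0.519 of the TPM of Slc2a2 came from complete coding transcripts, 41.2% ± 0.703 from Slc2a2-202 and 41.6% ± 0.184 from Slc2a2-203. By counts, which are not divided by length, Slc2a2-201 held 43.9%. Slc2a2-203 led in replicate 1 and Slc2a2-202 in replicate 2, by small margins.

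**Figure D2:**
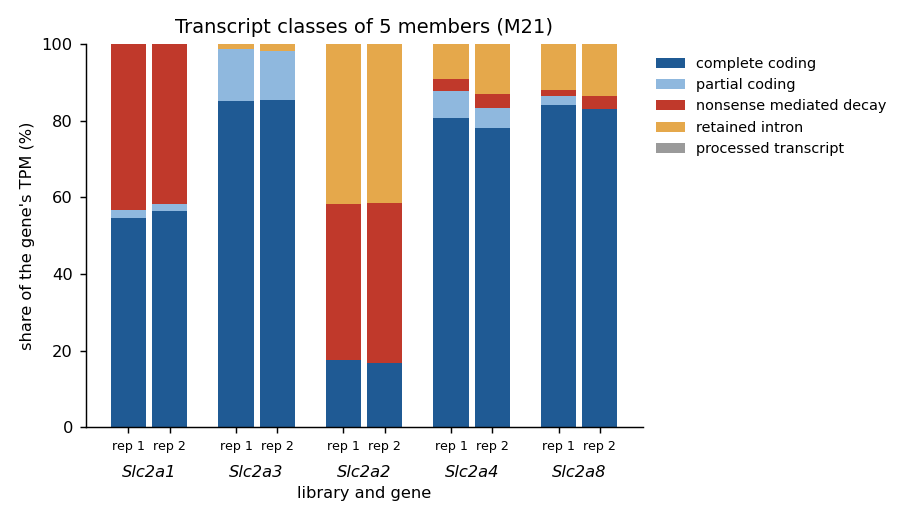
Share of each gene's TPM (%) by transcript class under GENCODE M21, with 1 bar for each library and the 5 members at 1 TPM or more. The bars of a gene are alike in both libraries, with complete coding transcripts at 55.6% for Slc2a1, 17.2% for Slc2a2 and 85.3% for Slc2a3.

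The other 3 members at this level were mostly complete coding message. Slc2a3-201 held 85.3% ± 0.0595 of the TPM of Slc2a3. A further 13.2% fell to Slc2a3-202, a partial coding transcript of 601 bases whose start lies 58895 bases upstream of that of Slc2a3-201. The same Slc2a3-202 held 1.94% of the counts of the gene. For Slc2a4, complete coding transcripts held 79.3% ± 1.75, of which Slc2a4-201 was the larger part with 65.2%, beside 14.2% for Slc2a4-203. The retained-intron transcript Slc2a4-207 had 9.03% of the gene's TPM in replicate 1 and 13.1% in replicate 2. For Slc2a8, Slc2a8-201 held 83.5% ± 0.766 and retained-intron transcripts 12.7%.

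Among 10920 protein-coding genes with several transcripts and at least 1 TPM, the median share of TPM from complete coding transcripts was 85.3%. Of these genes, 23.4% had less than 60%, as Slc2a1 and Slc2a2 did, and 4.18% had less than 20%, as Slc2a2 did. A leading transcript of a class that is not coding, in both libraries, was found in 8% of them and in 1 member, Slc2a2. The leading transcript was the same in both libraries for 4 of the 5 members, near the 91.1% of all such genes.

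The division within Slc2a1 and Slc2a2 differed with the annotation on which the reads were quantified. Under M4, Slc2a1-201 held 98.6% of the TPM of Slc2a1 in both libraries, and Slc2a1-204 held 0.156% and 0.266%. M4 lists Slc2a1-201 653 bases shorter and Slc2a1-204 925 bases shorter than M21 does. Slc2a2-201 held 88.1% and 91.4% of the TPM of its gene under M4. M4 lists Slc2a2-201 2996 bases shorter and Slc2a2-202 at the same length. In M21, Slc2a1-204 and Slc2a2-202 share every exonic base with other transcripts of their gene, so that 1 junction of each, printed above, is all that is theirs alone. The part of the length changes in the shares was not tested.

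The gene levels moved less between the annotations than the transcripts did. Slc2a1 had 288 and 290 TPM under M4, a log2 ratio of M21 over M4 of -0.15 in replicate 1 and -0.16 in replicate 2, with 1 TPM added to each value. Slc2a2 had 12.8 and 13.9 TPM under M4, and its log2 ratio was 0.20 and 0.22. Slc2a2 also had more counts under M21, 1047 and 1046 against 950 and 968. None of the 5 members at 1 TPM or more passed 1.5-fold in both libraries. Of the 13235 genes at 1 TPM or more under either annotation, 5.51% did.

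The place of Slc2a2 in the family depended on these choices. Under M4 it lay next below Slc2a4, and the values of the pair overlapped. With each gene's counts divided by the length of its principal transcript alone, Slc2a2 had 5.86 and 6.32 TPM. Slc2a4 then had 11.1 and 13.2 TPM and Slc2a8 had 9.05 and 9.63, so that Slc2a2 had rank 5. Counting complete coding transcripts only, Slc2a2 had 2.61 and 2.74 TPM, again rank 5, and Slc2a8 had 7.86 and 8.24. Slc2a1 and Slc2a3 stayed first and second in each of these ways, with 142 and 146 TPM for Slc2a1 and 27.7 and 25.3 TPM for Slc2a3 in complete coding transcripts.

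**Figure D3:**
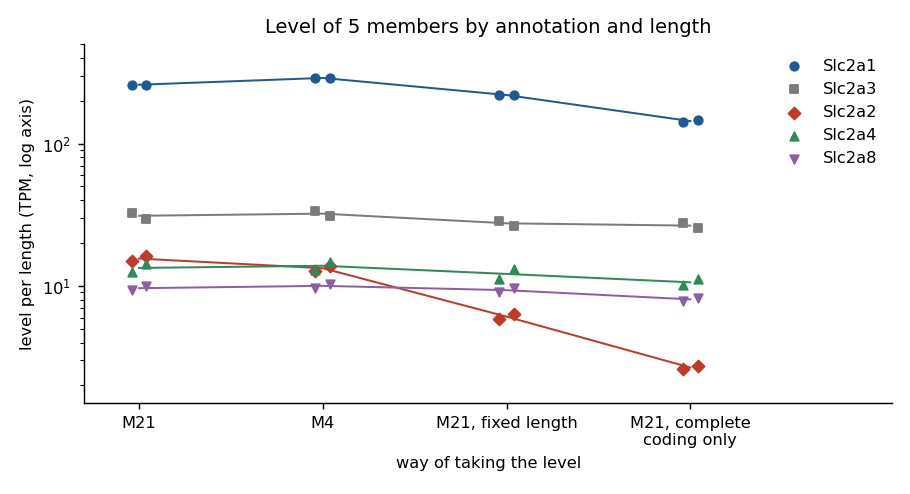
Level (TPM, log axis) of the 5 upper members under M21, under M4, with a fixed length, and from complete coding transcripts only, with points for the libraries and lines through their means. Slc2a2 goes from rank 3 under M21 to rank 5 in the last 2 ways, where it had 5.86 and 6.32 and then 2.61 and 2.74 TPM.

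Between the pools the abundant members were steady, and the members that differed had few reads. A gene was called different where its scaled counts were over 2-fold apart and the share of its counts in replicate 1 had an exact 95% binomial interval that left out 52.0%, the even split given the library sizes. By that rule 3 of 10 members were called, where 2.35% of 17343 genes were. Among genes with a mean count of 10 to 20, where the 3 lie, 11.6% were called. Slc2a12 had 3.04 counts in replicate 1 and 19.0 in replicate 2, with 13.6% of its counts in replicate 1 (interval 2.91% to 34.9%). Slc2a6 had 7 and 18 counts, 2.66-fold higher in replicate 2, with 28.0% in replicate 1 (interval 12.1% to 49.4%). Slc2a5 had 24 and 8 counts, 2.67-fold higher in replicate 1, with 75.0% there (interval 56.6% to 88.5%). These intervals cover counting error only and leave out variation between pools. Reads copied by PCR were not tagged by molecule, so the intervals can be too narrow even for counting error.

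Slc2a1 had 22562 and 21001 counts, and its log2 ratio of replicate 1 over replicate 2 was -0.01. Slc2a2 had 1047 and 1046 counts, a log2 ratio of -0.11, and Slc2a8 had 594 and 585, a log2 ratio of -0.09. Slc2a3, with 3613 and 3084 counts, was slightly higher in replicate 1 (log2 ratio 0.12), and its binomial interval of 52.7% to 55.1% left out the even split. Slc2a4, with 882 and 965 counts, was slightly higher in replicate 2 (log2 ratio -0.24), and its interval of 45.5% to 50.1% left it out too. Both differences are far within 2-fold. The even split depends on the scaling. By spike-in counts the scale of replicate 2 over replicate 1 was 1.004 in place of 0.925. At that scale the interval of Slc2a4 held the even split, and that of Slc2a1, 51.3% to 52.3%, left it out. Slc2a9 had 47 and 39 counts and Slc2a10 had 67 and 63, and both intervals held the even split.

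**Figure D4:**
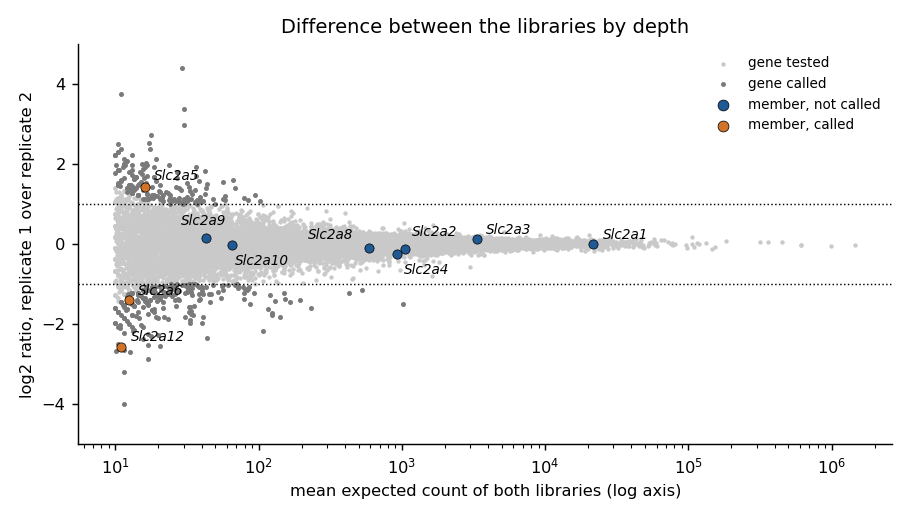
Log2 ratio of replicate 1 over replicate 2 against mean expected count (log axis) for 17343 genes, with called genes darker, the 10 members marked and dotted lines at 2-fold. The called members Slc2a5, Slc2a6 and Slc2a12 lie at the left, where the ratios of all genes scatter widely, and Slc2a1 lies at a log2 ratio of -0.01.

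Of the marker lists, only that of skeletal muscle held genes called different between the pools. Skeletal muscle markers were higher in replicate 2. Of the members, Slc2a2, Slc2a4, Slc2a6 and Slc2a8 were higher there too, by scaled count and by TPM. Slc2a1, Slc2a10 and Slc2a12 were higher there by scaled count but not by TPM, Slc2a1 by very little. The 5 muscle markers summed to 3.64 TPM in replicate 1 and 11.1 TPM in replicate 2, and all 4 with enough counts were called. Myog had 41 and 173 counts, and Acta1 had 74 and 166. Slc2a4, a gene of muscle, fat and red cells in the adult mouse, had 12.5 and 14.2 TPM in the same libraries, and the part of muscle RNA in its level was not tested. No defining muscle marker was at 0, although Ckm, the muscle creatine kinase, had 0.13 and 0.17 TPM. All 5 granulocyte markers had slightly higher scaled counts in replicate 2, with log2 ratios of replicate 1 over replicate 2 from -0.35 to -0.03, and so did 4 of 5 mesenchyme and 4 of 5 erythroid markers, with none called. All 5 megakaryocyte markers were higher in replicate 1, by log2 ratios from 0.10 to 0.22, also with none called. Of the members, Slc2a3 and Slc2a5 were higher in replicate 1 by scaled count and by TPM, and Slc2a9 by scaled count only. The hepatoblast, macrophage and endothelium lists were split, with 3, 3 and 2 of 5 markers higher in replicate 1 and none called. Of the neural markers tested 2 of 3 were higher there, and of the gut and pancreas markers 0 of 2. The part of these cell types in the members' differences was not tested. The adipocyte markers lay at 0.145 TPM or less.

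For the low members the ratio by count and the ratio by TPM did not match. They were over 2-fold apart for Slc2a6, Slc2a9 and Slc2a12, against 0.508% of all genes tested, a comparison made after the values were seen. That share covers genes of all depths. The share among genes with as few reads as these members was not computed, so the mismatch cannot be called unusual for them. Slc2a12 was higher in replicate 2 by count, with 3.04 against 19.0, but higher in replicate 1 by TPM, with 0.20 against 0.15. Its effective length was 459 bases in replicate 1 and 4068 in replicate 2. In replicate 1, 95% of its TPM was on the 398-base transcript Slc2a12-202, from 1.90 counts, and in replicate 2 all of it was on the complete transcript Slc2a12-201. Slc2a9 had similar counts, 47 and 39, but effective lengths of 2865 and 1313 bases and 0.50 against 0.98 TPM. Its expected counts were assigned mainly to Slc2a9-203 in replicate 1 and mainly to Slc2a9-210 in replicate 2. These assignments are uncertain. By the deposited posterior mean TPM, Slc2a9-203 held 17.2% of the gene in replicate 1 and Slc2a9-210 held 4.96% in replicate 2. By the same measure Slc2a12-201 held 51.6% of Slc2a12 in replicate 2.

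**Figure D5:**
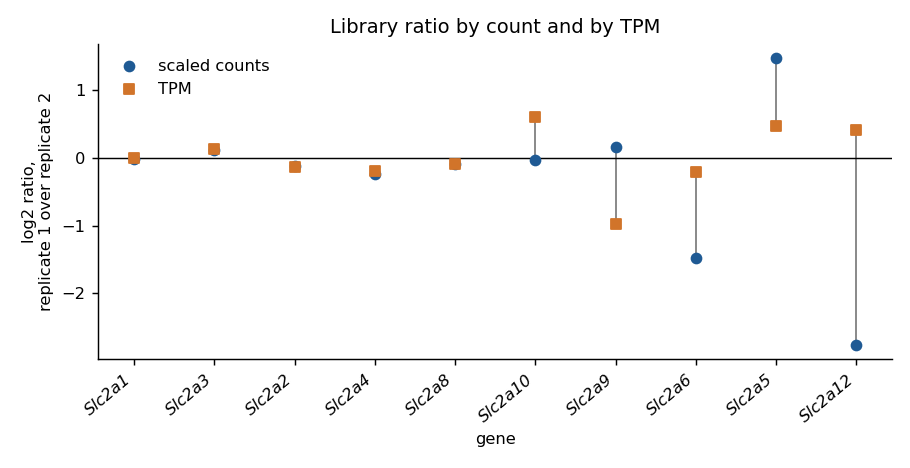
Log2 ratio of replicate 1 over replicate 2 for each member by scaled counts (circles) and by TPM (squares), joined by a line, with members in the order of mean TPM. The marks coincide or nearly so for the 5 upper members and lie apart for the 5 lower ones, most for Slc2a12.

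Some member reads could belong to a neighbour. Slc2a12 shares 407 exonic bases with Tbpl1 on the opposite strand, which had 29.1 and 28.7 TPM, far above Slc2a12 itself. Slc2a1 shares 105 exonic bases with the antisense gene Gm12868, which had 1.62 and 1.53 TPM. Whether the counting used strand is not given in the sources used here, so such reads cannot be told apart. No other member shared an exonic base with another gene, and the deposited posterior SD of the gene count was under 2 counts for all 10 members.

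The genes around the transporters were read from lists of related functions. Of the genes on them 1, Slc23a3 of the ascorbate list, differed between libraries by the rule above, with 45 against 18 counts. By the same rule 2.35% of all genes tested were called, so 1 call among these lists is not remarkable. Of 9 other sugar transporters, 3 reached 1 TPM, led by the SWEET-type transporter Slc50a1 with 17.1 ± 1.41 TPM, ahead of the inositol carrier Slc5a3 with 2.20 TPM and Slc5a2 with 1.71 TPM. The gut glucose carrier Slc5a1 and Slc5a10 had a count of 0. Slc2a1 thus had the highest TPM of the sugar transporters examined.

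Message of enzymes that trap sugars in the cell was present beside it. Of 12 genes for phosphorylation and glucose release, 10 reached 1 TPM. Galk1, galactokinase, had 162 ± 8.35 TPM and Hk1, the hexokinase of red cells, had 109 ± 0.410 TPM. Khk, ketohexokinase, followed with 29.3 ± 1.65 TPM. G6pc, which releases glucose from the hepatocyte, had a count of 0. For fructose, all 5 genes listed reached 1 TPM, led by Sord with 135 TPM and Akr1b3 with 66.6 TPM, while the fructose transporter Slc2a5 stood at 0.215 ± 0.0495 TPM.

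Genes that partner or regulate the transporters were widely measured. All 6 red cell membrane partners exceeded 10 TPM, with Bsg at 860 ± 23.5 TPM, Slc4a1 at 790 TPM and Dmtn, which links the membrane to the skeleton, at 174 TPM. All 13 genes for transporter turnover and trafficking reached 1 TPM, led by Vps35, a subunit of retromer, with 109 TPM, and by Gipc1 and Rab10 with 67.2 and 67.1 TPM. All 7 insulin and growth factor relay genes did too, with Akt1 at 66.3 TPM, Akt2 at 37.8 TPM and Pik3r1 at 16.4 TPM. Of 9 transcriptional regulators, all reached 1 TPM, and Mlx (29.5 TPM), Hif1a (28.2 TPM) and Arnt (20.3 TPM) were highest.

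Among genes that handle other substrates of the family, levels ranged from 0 to over 100 TPM. For urate, Abcg2, an exporter, had 174 ± 2.14 TPM, and Urah had 3.79 TPM. Uox, urate oxidase, had 0.655 TPM, Slc17a1 had a count of 0, and 6 of the 8 genes were under 1 TPM. For ascorbate, Gsto1 had 101 TPM, Gulo 50.9 TPM and Rgn 46.3 TPM, and Slc23a3 had 0.595 TPM. Of the lactate transporters, Slc16a3 had 141 ± 2.90 TPM, Slc16a1 had 80.6 TPM and Slc16a8 had 0.02 TPM. Emb, which codes for a partner of such transporters, had 14.5 TPM.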

How the data were processed

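Expression was measured in 2 polyA RNA-seq libraries of embryonic liver, replicates from separate pools of embryos per the labels. The deposited expected counts are the authors' estimates of how many reads came from each gene or transcript. TPM, posterior mean TPM and the posterior SD were deposited by the authors beside them, per the file headers, and spike-ins are in the TPM total. The assembly is mm10 and the annotations GENCODE M21 (used unless M4 is named) and M4, per the submitters' processing notes. The aligner is not given in the sources used here, nor is the quantifier or its use of strand. The 26248 entries with bare numbers as identifiers and the spike-ins were left out of comparisons.

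The members, gene lists and tests were chosen with earlier results of these data known. Levels are the mean ± SD of both libraries. Counts were scaled with TMM of edgeR 4.0.16, and genes with a mean expected count of 10 or more were compared with a prior count of 0.5. Intervals are exact binomial ones on counts rounded to whole numbers. Annotations were compared as log2 of TPM + 1 at 1 TPM or more. Complete coding transcripts are protein-coding ones with both ends of the reading frame annotated. All members were named, with the 3 highest and up to 2 genes under 1 TPM of each list, the highest marker and markers at 0, and transcripts that led or had a mean share of 10%. Some genes and a sequence that the rules select are not reported here. Myog, Ckm, Gm12868 and Tbpl1 were named after their values were seen. DESeq2 1.42.0 size factors, total and spike-in scaling, other filters, folds, pseudocounts, TPM totals and estimates were tried as alternatives. Positions, exons and sequences came from the GENCODE M21 annotation and transcripts. Python 3.11.15 with pandas 2.3.3, scipy 1.17.1 and matplotlib 3.10.9 was used with R 4.3.3.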

Additional observations from a re-analysis of the deposited data

How the results depend on the processing

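The order of the members kept Slc2a1 first and Slc2a3 second under GENCODE M4, posterior mean TPM, a fixed length and complete coding transcripts only, the last 2 of which were added after the data were seen. The summed TPM was 360 under M4, 349 over Ensembl genes only, 475 without globins, 328 with posterior mean TPM, 276 with a fixed length and 193 in complete coding transcripts. The share of Slc2a1 was 80.1%, 77.4%, 79.5% and 74.5% under M4, posterior mean TPM, fixed length and complete coding transcripts. Slc2a2 had rank 3 with posterior mean TPM, rank 4 under M4 and rank 5 in both added ways. Members at 1 TPM or more numbered 7 without globins and 6 with posterior mean TPM. Members at 10 TPM or more numbered 5 under M4, over Ensembl genes only, without globins and with posterior mean TPM, and 3 in both added ways. The same 3 members differed between libraries under all 6 other settings, while the genes called were 754 without a filter on counts, 758 at 1.5-fold and 408 as reported. These 2 looser settings could only add members to those called, not remove any. No member differed between annotations under any setting tried, of which the stricter fold could not have added one. No paired analysis was possible because there is a single group. With 2 libraries the spread is poorly known, and the 5 low members rest on at most 67 counts in each library.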
